A study of Rattus norvegicus with 4 samples.

Results

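The purinergic receptors of rat vestibular ganglion neurons were examined in 10 genes: the P2X genes P2rx2, P2rx3, P2rx4, P2rx5, P2rx6 and P2rx7 and the P2Y genes P2ry1, P2ry2, P2ry6 and P2ry12. The genes were chosen with earlier results of these data known. Their probes were then taken by gene symbol alone: 13 of the 35126 probes of the array carried 1 of these symbols and no other. Of these, 10 probes for 9 genes could be read, and 3 probes, among them the only probe of P2rx2, lay in a stretch of the table where names and values could not be paired by the rule used here. The samples were 2 arrays of calretinin-positive cells, the afferents that end as calyces on vestibular hair cells, and 2 arrays of calretinin-negative cells, afferents with dimorphic or bouton endings. Cells of both groups were cut from rat vestibular ganglia by laser capture guided by immunofluorescent staining of calretinin, which binds calcium, and pooled. Their total RNA was hybridised to 1-colour (Cy5) arrays. The labels give no strain, age, sex, treatment or number of animals for either group.

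Extracellular ATP and related nucleotides act as transmitters and as signals between neurons and glia. P2X receptors are trimeric channels that ATP opens to cations within milliseconds. P2Y receptors are G protein-coupled and differ in the nucleotides they bind: ATP and UTP for P2Y2, UDP for P2Y6, ADP for P2Y1 and P2Y12. Enzymes on the cell surface break nucleotides down to adenosine, which has its own receptors. In the inner ear, P2X receptors with the P2rx2 subunit are known from hair cells, supporting cells and afferent neurons.

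Groups were taken from the sample titles, because the sample descriptions call all 4 samples calretinin-positive. Array medians lay between 0.9896 and 0.9916 on the authors' linear intensity scale, and replicate arrays correlated across the 21070 tested probes at r = 0.99 for calretinin-positive and 0.994 for calretinin-negative cells. Calb2, the calretinin gene that was used to choose the cells, had 291 and 328 in calretinin-positive arrays and 138 and 129 in calretinin-negative arrays. It goes with the titles and was also bright in the negative arrays. The small number of arrays limits the precision. Replicates are not stated to be separate animals or pools, so the spread behind every p-value is that between arrays and could be technical. A probe was called dim when its mean log2 intensity lay below the 40th percentile of all probes, an intensity of 0.456. For a gene dim in a group the levels are given without a fold.

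Of the 9 receptor genes read, 4 were bright enough to be tested, P2rx4, P2rx7, P2ry2 and P2ry6. Of these, P2ry6 and P2ry2 were lower in the calretinin-positive arrays, and P2rx4 and P2rx7 did not pass the test. Passing meant an adjusted p under 0.05 in limma with Benjamini-Hochberg adjustment over all tested probes. Of all 21070 tested probes 64.2% passed, 23.6% lower and 40.6% higher in the calretinin-positive arrays, so 2 of 4 receptor genes is no more than the share on the whole array. The remaining 5 genes, P2rx3, P2rx5, P2rx6, P2ry1 and P2ry12, were dim by the probes read.

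P2ry6 encodes the UDP receptor, known from macrophages, microglia and smooth muscle. Its probe had intensities of 1.80 and 1.52 in calretinin-positive arrays and 10.7 and 10.3 in calretinin-negative arrays. Both positive arrays lay far below both negative ones, and all 4 were above the dim limit. The means were 1.66 ± 0.196 in calretinin-positive and 10.5 ± 0.240 in calretinin-negative arrays (SD, n = 2 each). The log2 change was -2.66 ± 0.09 (SE; adjusted p = 2.64e-08, limma, Benjamini-Hochberg), so the level in negative arrays was 6.33 times that in positive ones. A decrease at least this large was seen for 1.18% of the tested probes.

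P2ry2 encodes the receptor for ATP and UTP, known from epithelia, endothelium and glia. Its probe had 1.23 and 1.35 in calretinin-positive arrays and 2.90 and 2.55 in calretinin-negative arrays. The groups did not overlap, as was the case, in the same direction, for 31.9% of the tested probes. The log2 change was -1.08 ± 0.10 (SE; adjusted p = 1.48e-05, limma, Benjamini-Hochberg), a decrease that 6.38% of the tested probes reached. In the RefSeq annotation of the rat assembly GRCr8, P2ry2 and P2ry6 are neighbours on chromosome 1 with 0 protein-coding genes between them.

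P2rx4 encodes a channel subunit known from neurons, endothelium and macrophages. Its probe had 17.5 and 15.8 in calretinin-positive arrays and 14.8 and 16.0 in calretinin-negative arrays. The groups overlapped, and the log2 change of 0.11 had a 95% interval from -0.06 to 0.29 (adjusted p = 0.223, limma, Benjamini-Hochberg). Its sign turned with quantile normalization (-0.08) and with cyclic loess normalization (-0.07). P2rx7 encodes the channel subunit that needs high ATP and is known from immune cells and glia. Its probe had 2.82 and 3.01 in calretinin-positive arrays and 3.09 and 2.66 in calretinin-negative arrays. These values overlapped too, with a log2 change of 0.02 and an interval from -0.19 to 0.23 (adjusted p = 0.850, limma, Benjamini-Hochberg). P2rx4 and P2rx7 are also neighbours, on chromosome 12 of that assembly, with 0 protein-coding genes between them. For both genes the interval leaves no room for a change as large as that of P2ry2.

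**Figure D1:**
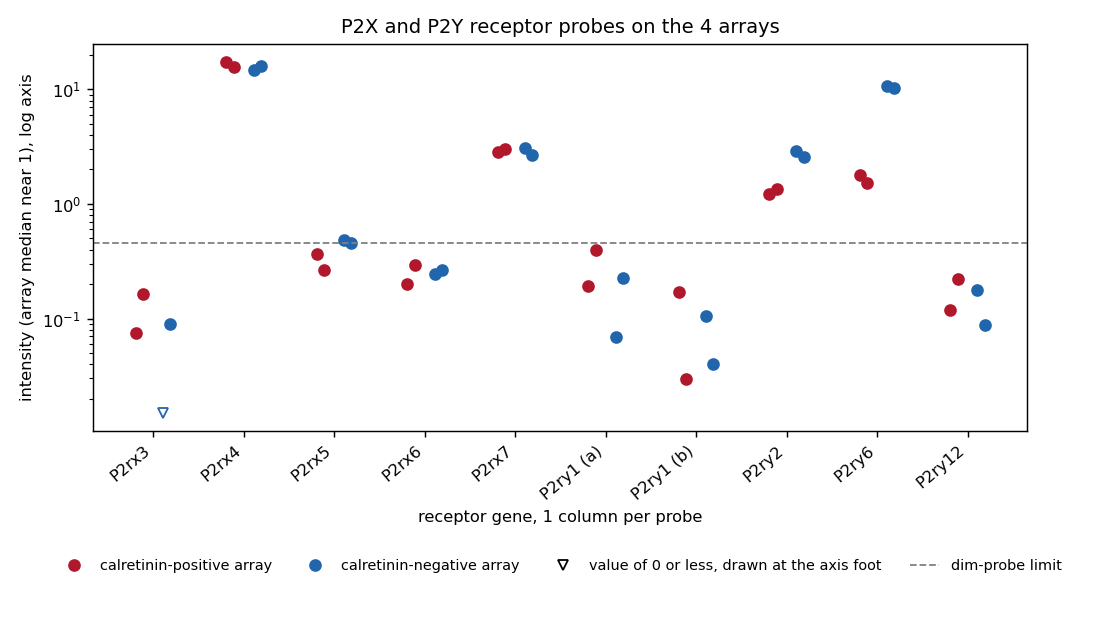
Intensity (log axis, authors' linear scale) of each receptor probe that could be read, with 1 point per array, calretinin-positive (left of each pair) and calretinin-negative (right), and the dim limit of 0.456 as a dashed line. Within a column, P2ry6 and P2ry2 lie lower in the calretinin-positive arrays, P2rx4 and P2rx7 overlap, and the other probes lie near or below the limit; levels of different probes are not comparable, and P2ry1 has 2 probes (a and b).

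**Figure D2:**
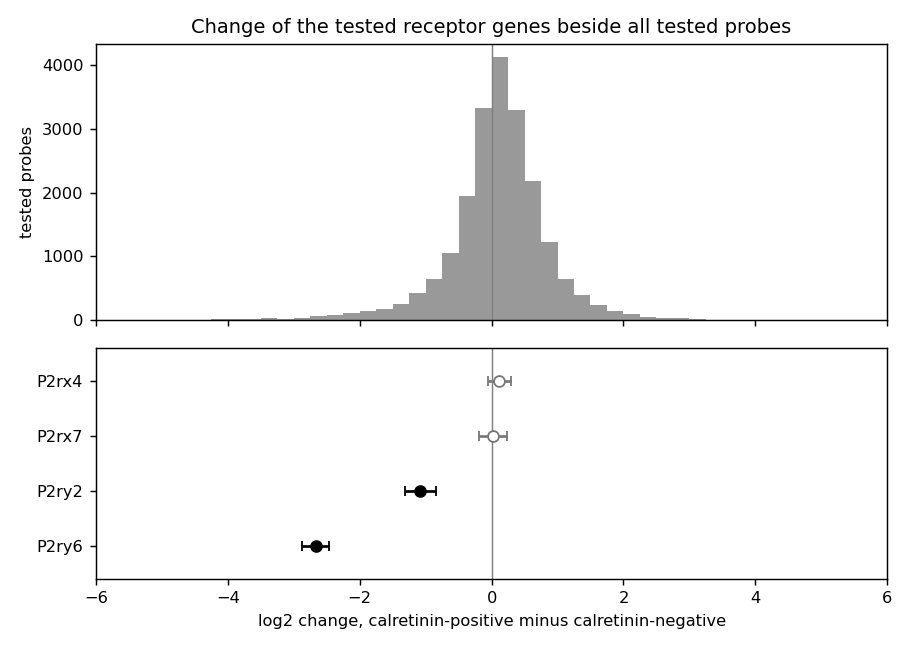
Upper panel, number of tested probes by log2 change, calretinin-positive minus calretinin-negative; lower panel, the 4 tested receptor genes with 95% intervals on the same axis, filled where the adjusted p was under 0.05. P2ry6 (-2.66) and P2ry2 (-1.08) lie on the lower side, P2rx4 (0.11) and P2rx7 (0.02) near the median of all tested probes, 0.11.

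Among the dim genes, P2rx5, a channel subunit of sensory and other neurons, had 0.365 and 0.266 in calretinin-positive arrays and 0.481 and 0.458 in calretinin-negative arrays. The 2 negative arrays lay just above the dim limit and both positive arrays below it, and its mean over all arrays left it untested. P2rx3, the ATP-gated subunit typical of small sensory neurons, had 0.0745 and 0.165 in calretinin-positive arrays and -0.0105 and 0.0891 in calretinin-negative arrays, the scale of the authors' values reaching below 0. P2rx6, a subunit that pairs with other P2X subunits, had 0.201 and 0.291 in calretinin-positive arrays and 0.244 and 0.263 in calretinin-negative arrays. No array lifted these probes of P2rx3 or P2rx6 above the limit. The second probe of each gene was not read here. On an added reading, given under the other observations, it was above the limit on all 4 arrays for P2rx6. For P2rx3 it was above the limit on the calretinin-negative arrays.

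P2ry1, an ADP receptor of neurons, platelets and glia, has 2 probes. One had 0.194 and 0.393 in calretinin-positive arrays and 0.0695 and 0.225 in calretinin-negative arrays. The other had 0.171 and 0.0296 in calretinin-positive arrays and 0.105 and 0.0404 in calretinin-negative arrays. Both stayed below the limit on all 4 arrays and the groups overlapped for each. P2ry12, the ADP receptor of platelets and a defining gene of microglia, had 0.119 and 0.221 in calretinin-positive arrays and 0.176 and 0.0880 in calretinin-negative arrays, likewise below the limit throughout. When dim probes were kept in the fit, none of these 5 genes passed, and the smallest adjusted p among them was that of P2rx5 (0.203, unadjusted p = 0.107, limma, Benjamini-Hochberg). The limit is a chosen filter, not a measured background, so a level below it does not show that a receptor was absent.

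Over the 4 arrays, the genes whose centred log2 values lay nearest to those of P2ry6 were Enc1, Hils1 and Ndrg2, at Euclidean distances of 0.0953, 0.101 and 0.129 among 8171 other genes tested. Hils1 was dim in the calretinin-positive arrays, with 0.231 and 0.207, so its distance rests in part on values below the limit. Ndrg2 had 17.8 and 16.5 in calretinin-positive arrays and 113 and 115 in calretinin-negative arrays. Nearest to P2ry2 were Col2a1, Hspa12b and Baz2a, at 0.0343, 0.0502 and 0.0673. With 4 arrays in 2 groups such a distance reflects little more than the size of the change.

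Markers of other cell types also differed between the groups. Of 10 tested macrophage and microglia markers 5 were lower and 3 higher in the calretinin-positive arrays, beside 23.6% lower and 40.6% higher over all tested probes, and their median log2 change was -0.64 beside 0.11 over all tested probes. C1qa, a complement gene of macrophages, had 3.57 and 3.76 in calretinin-positive arrays and 15.3 and 14.9 in calretinin-negative arrays. Csf1r, the receptor macrophages need to survive, had 48.0 and 52.5 in calretinin-positive arrays and 109 and 121 in calretinin-negative arrays. C1qc (log2 change -1.89) and Tyrobp (-1.01), an adaptor of myeloid receptors, also fell, whereas Cd68 rose by 0.43. Of the 3 markers that rose, Ptprc and Cd14 did not pass after quantile or cyclic loess normalization. Cx3cr1, Trem2 and Lyz2 of the same list were dim in both groups. The summed intensity of the 13 markers read was 129 and 133 in calretinin-positive arrays and 226 and 235 in calretinin-negative arrays. Here and below, such sums add probes whose levels are not comparable and rest mostly on the brightest, so they do not measure cell content.

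Glial and vascular markers fell as well, with the same 23.6% of all tested probes lower. Among 7 markers of Schwann cells and satellite glia that were tested, 5 were lower and 0 higher in the calretinin-positive arrays: Lgi4 (log2 change -4.82), Mbp (-3.11), Sox10 (-2.25), S100b (-1.28) and Prx (-0.89). Kcnj10 (-0.09) and Egr2 (0.02) did not pass, though both were lower after cyclic loess normalization. Erbb3 and Mag were dim in both groups. The summed intensity of the 10 read was 155 and 146 in calretinin-positive arrays and 282 and 297 in calretinin-negative arrays. Prx alone had means of 107 in calretinin-positive and 199 in calretinin-negative arrays. Of 8 endothelial and mural markers 7 were lower, led by Vwf (-2.26), Pecam1 (-1.92), Tek (-1.48) and Esam (-1.83). Flt1 counted as lower by its brightest probe (-0.19), while its other tested probe was higher (0.97). The 10 read summed to 31.7 and 32.5 in calretinin-positive arrays and 85.9 and 89.7 in calretinin-negative arrays, with Kdr and Acta2 dim in both. Mog (-5.42) and Mobp (-5.33) of 3 oligodendrocyte markers fell, and Opalin had 11.2 in calretinin-positive and 10.2 in calretinin-negative arrays; the 6 read summed to 13.8 and 14.9 in calretinin-positive arrays and 129 and 132 in calretinin-negative arrays. Of 4 astrocyte markers 3 were called lower, Gfap (-5.42), Slc1a3 (-0.20, adjusted p = 0.0414, limma, Benjamini-Hochberg) and Aqp4. The brightest Aqp4 probe had 0.344 and 0.603 in calretinin-positive arrays, dim by their mean log2, and 48.4 and 51.7 in calretinin-negative arrays. It passed the filter on dim probes only through the negative arrays, so its call supports nothing. The second Aqp4 probe had 1.02 in calretinin-positive and 4.95 in calretinin-negative arrays (log2 change -2.28). The 4 astrocyte markers summed to 123 and 136 in calretinin-positive arrays and 242 and 242 in calretinin-negative arrays. Slc1a3 alone had means of 128 in calretinin-positive and 147 in calretinin-negative arrays. The part of these cell types in the lower P2ry6 and P2ry2 was not tested. In pooled cells, fewer cells of a type and less RNA per cell cannot be told apart.

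Neuron markers did not move one way. The counts here and for fibroblasts stand beside 40.6% higher and 23.6% lower over all tested probes. Of 5 tested, Nefh (log2 change 1.62), Nefm (0.58) and Uchl1 (0.23) were higher and Prph (-1.01) and Elavl4 (-0.88) lower in the calretinin-positive arrays, with Uchl1 at -0.06 after either normalization and Snap25 dim. The second tested Elavl4 probe (-0.23) did not pass. The 6 read summed to 363 and 351 in calretinin-positive arrays and 346 and 351 in calretinin-negative arrays. Uchl1 alone had means of 196 in calretinin-positive and 167 in calretinin-negative arrays. Of 4 fibroblast markers Ogn (1.08) rose, Dcn (-0.97) and, by its brightest probe, Col1a1 (-0.24) fell and Col1a2 (0.05) did not pass. The second Col1a1 probe (0.05) did not pass either. With Lum, dim in both groups, the 5 read summed to 182 and 177 in calretinin-positive arrays and 124 and 133 in calretinin-negative arrays. Ogn alone had means of 117 in calretinin-positive and 55.1 in calretinin-negative arrays.

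**Figure D3:**
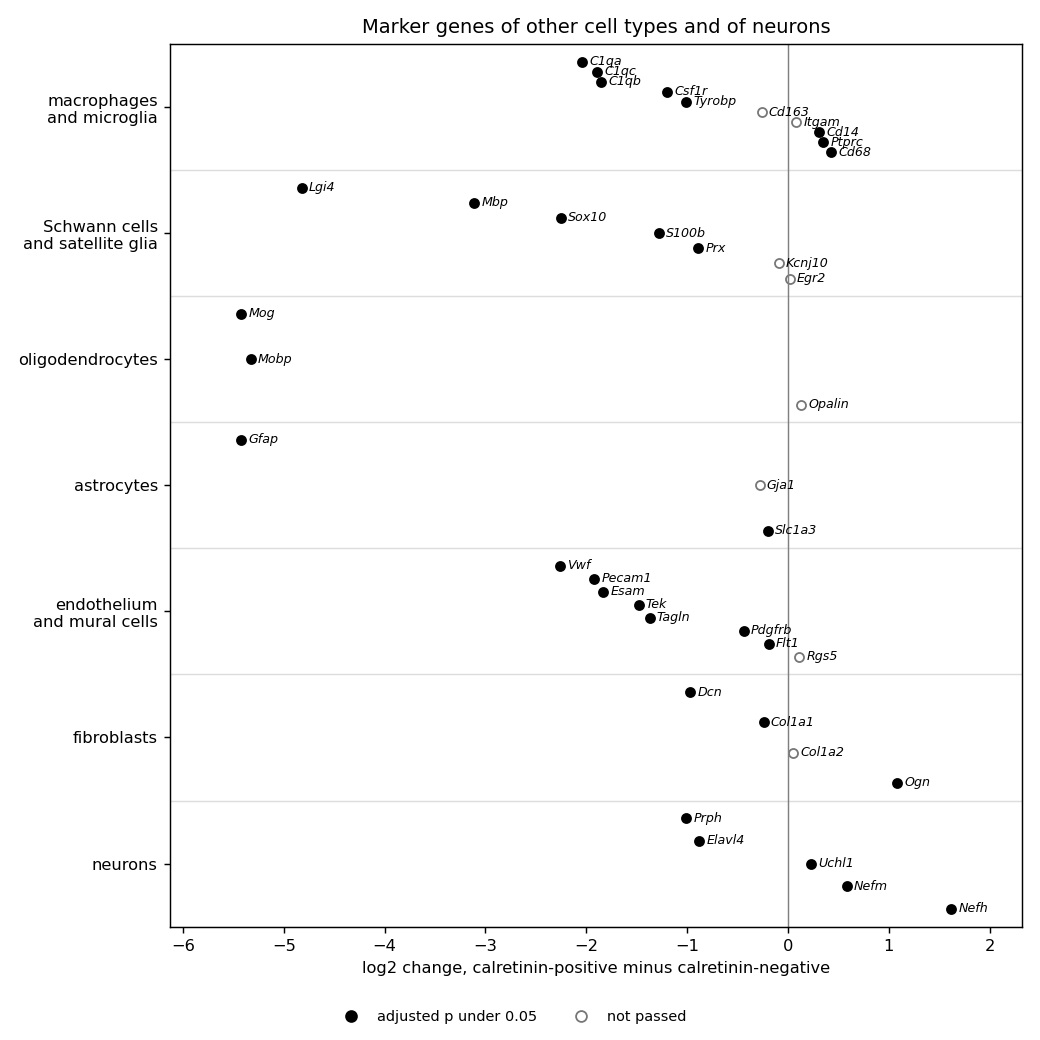
Log2 change, calretinin-positive minus calretinin-negative, of tested marker genes by cell type, filled where the adjusted p was under 0.05; each gene is shown by its brightest probe, and Aqp4, whose brightest probe was dim in the calretinin-positive arrays, is left out. Glial, oligodendrocyte and endothelial markers lie mostly on the lower side, and neuron markers lie on both sides.

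The other genes of purinergic signalling were taken from 6 lists with 63 genes in all, of which 48 could be read and 33 were tested. Of these, 13 were higher and 7 lower in the calretinin-positive arrays and 13 did not pass, with a median log2 change of 0.16 beside 0.11 over all tested probes. The share that passed is close to that of the whole array. Of the other P2 receptor genes, P2rx1 and P2ry10 were dim in both groups. P2ry14, a receptor for UDP-glucose, had 0.139 and 0.0911 in calretinin-positive arrays and 2.28 and 0.125 in calretinin-negative arrays, so that a single negative array stood above the limit.

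Ectonucleotidases set how much ATP and ADP reach the receptors. Of 7 tested, 3 were higher and 2 lower in the calretinin-positive arrays, near the 40.6% higher and 23.6% lower over all tested probes. Alpl, the tissue-nonspecific alkaline phosphatase that strips phosphates from nucleotides, had 51.4 and 58.6 in calretinin-positive arrays and 13.4 and 16.4 in calretinin-negative arrays (log2 change 1.89, adjusted p = 3.83e-07, limma, Benjamini-Hochberg). Nt5e, which makes adenosine from AMP, had 4.21 and 4.60 in calretinin-positive arrays and 1.76 and 1.59 in calretinin-negative arrays, and its 2 probes gave 1.40 and 1.07. Positive and negative arrays were apart for both genes, without a share over all tested probes to set beside that. Entpd2, which cleaves ATP to ADP and is known from glia of peripheral ganglia, moved the other way, with 1.02 and 0.767 in calretinin-positive arrays and 2.68 and 2.43 in calretinin-negative arrays (log2 change -1.53, adjusted p = 1.19e-05, limma, Benjamini-Hochberg). Enpp3 fell too (-0.84) and Entpd4, a Golgi enzyme, rose (0.66). Entpd3 had 6.15 in calretinin-positive and 6.16 in calretinin-negative arrays, and Enpp1 had 1.05 in calretinin-positive and 1.19 in calretinin-negative arrays; neither passed.

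Of 8 tested genes for ATP release, 4 were higher, Panx1 among them, and 2 lower, beside 40.6% higher and 23.6% lower over all tested probes. Panx1, whose channels let ATP out of cells, had 1.14 and 1.15 in calretinin-positive arrays and was dim in the calretinin-negative ones, at 0.403 and 0.110. It passed the filter on dim probes only through the positive arrays, so it is given by its levels and its call supports nothing. Panx2 (log2 change 0.57), the connexin gene Gjb6 (0.56) and Vdac1 (0.55), a channel of the outer mitochondrial membrane, rose as well. Gjb1, a connexin of Schwann cell myelin, fell by 1.01 on the log2 scale, and Panx3 changed by -0.40. Slc17a9, the vesicular nucleotide transporter gene, was dim in both groups, at 0.249 in calretinin-positive and 0.404 in calretinin-negative arrays.

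On the adenosine side, Ada, which removes adenosine by deamination, had 35.2 and 35.0 in calretinin-positive arrays and 6.18 and 5.93 in calretinin-negative arrays. Its log2 change was 2.54 (adjusted p = 4.76e-09, limma, Benjamini-Hochberg), and its second probe, with a change of 2.26, moved the same way. Of 7 tested genes of adenosine uptake and metabolism it was the only one that rose, and Slc29a3, a nucleoside transporter of lysosomes, and Pnp, purine nucleoside phosphorylase, fell by 0.95 and 0.61. Over all tested probes 40.6% were higher and 23.6% lower. After quantile normalization Slc28a2 also rose (0.62), and after either normalization the brightest Ampd2 probe fell (-0.26). Without that normalization the 3 Ampd2 probes disagreed, with log2 changes of -0.06, -0.29 and 0.14, of which the -0.29 passed. All 3 tested probes of Slc29a3 were lower in the calretinin-positive arrays. The receptor genes Adora1, with 6.75 in calretinin-positive and 5.96 in calretinin-negative arrays (adjusted p = 0.0551, limma, Benjamini-Hochberg), and Adora2b, with 0.968 in calretinin-positive and 0.853 in calretinin-negative arrays, did not pass, and Adora2a was dim on both of its probes.

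Below the P2Y receptors, P2Y2 and P2Y6 act through G proteins of the Gq family, phospholipase C and calcium release from stores. The list of 9 tested genes was wider than these steps. It also held Gnai1 and Gnai3, G protein genes outside the Gq family, and the receptor kinase gene Grk2. Of the 9 genes, 5 were higher and 1 lower in the calretinin-positive arrays. Their median log2 change was 0.54, beside 0.11 over all tested probes. Quantile normalization gave a median of 0.33 for these genes, and cyclic loess gave 0.38. With 64.2% of all tested probes called, 6 of 9 is near the share on the whole array. Gna11, a Gq-family subunit, had 2.84 and 3.10 in calretinin-positive arrays and 1.10 and 0.986 in calretinin-negative arrays (log2 change 1.51). Itpr2, a calcium release channel of the store, had 3.55 and 3.30 in calretinin-positive arrays and 1.21 and 1.09 in calretinin-negative arrays (1.57). Itpr1 (0.93), Plcb4 (0.61) and Gnai1 (0.54) rose and Itpr3 fell (-0.57). Plcb2, left untested by its mean over all arrays, had 0.143 and 0.0662 in calretinin-positive arrays and 1.25 on both calretinin-negative arrays. A Grk3 probe, untested too, went the other way, with 0.983 and 0.976 in calretinin-positive arrays and 0.0752 and 0.0161 in calretinin-negative arrays. The other Grk3 probe was below the dim limit on all 4 arrays. Grk2, a kinase that silences activated receptors, did not pass by its brightest probe (0.16) and was higher by its second (0.66). These genes serve many receptors.

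**Figure D4:**
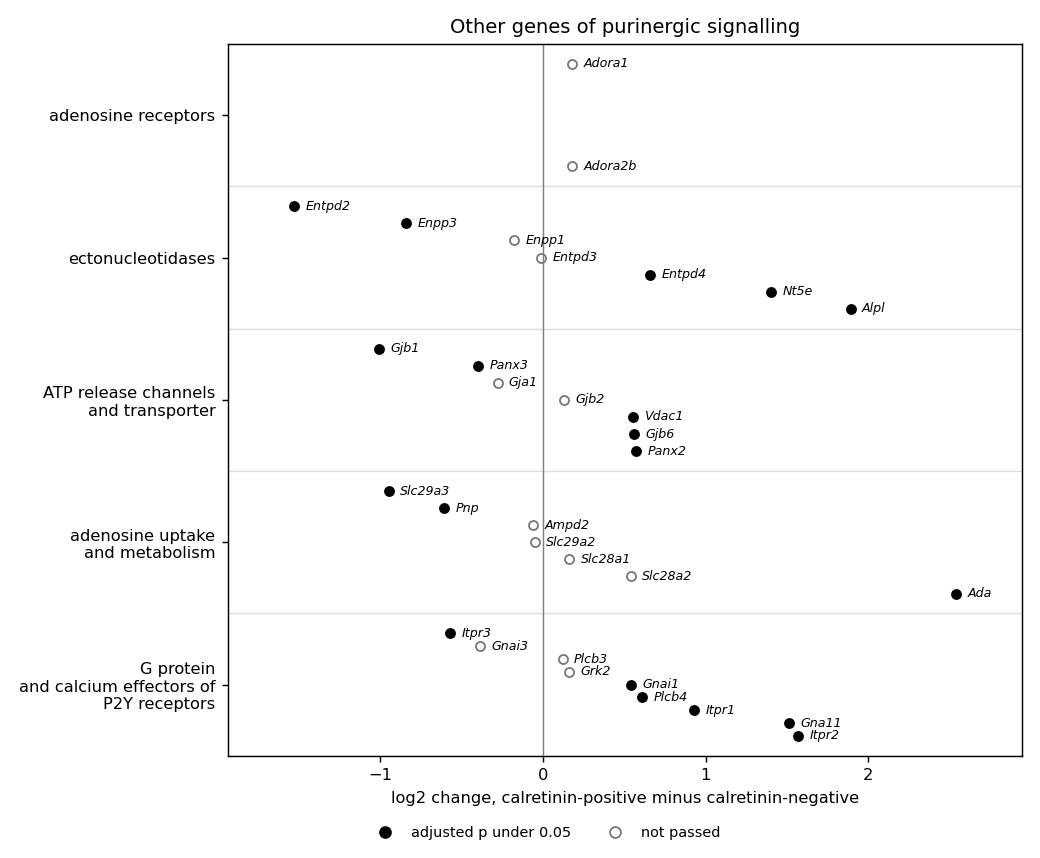
Log2 change, calretinin-positive minus calretinin-negative, of tested genes of purinergic signalling in 5 groups, filled where the adjusted p was under 0.05; Panx1, dim in the calretinin-negative arrays, is left out. Ada (2.54), Alpl (1.89) and Nt5e (1.40) lie on the higher side and Entpd2 (-1.53) and Gjb1 (-1.01) on the lower.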

How the data were processed

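The authors deposited 1 table of probe intensity values on a linear scale, from 1-colour arrays per the labels; the sources used here do not name the background correction or normalization. Array medians near 1 point to scaling by the median. Groups came from titles. Members, gene lists and settings were chosen with earlier results of these data known. Names came from the platform annotation (16677 of 35126 probes with 1 symbol, 163 with several, 18286 with none). IDs up to 144112 were read at their own row, IDs from 185001 on 5 table rows later, and 2010 named IDs between were not read. Across probes of 1 accession, levels of late and early probes correlated at r = 0.363 (373 pairs) on this reading. The values were -0.185 at their own rows (374 pairs) and 0.440 within the early part (242 pairs). The log2 changes of these probes, dim ones included, correlated at 0.16, -0.114 and 0.265 in the same order. Probes of 1 accession thus agreed only weakly on the change, a limit on every change that rests on a single probe. The pairs share arrays and are not independent. Receptor genes read 5 rows later were P2rx3, P2rx6, P2rx7 and P2ry12.

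Entries of -9999 were missing. Missing, zero and negative values (532 to 776 zero or negative per array) were replaced, before log2, by the 1st percentile of positive values on that array. Probes below the 40th percentile of mean log2 were left out, and limma 3.58.1 was run in R 4.3.3 on the remaining 21070 (lmFit, eBayes with a trend, two-sided, Benjamini-Hochberg, threshold 0.05), which was also run on simulated data. Permuting 2 against 2 arrays cannot give a p under 0.333. The brightest probe stood for a gene. All receptor genes, up to 4 genes per list by smallest p, and 3 genes nearest to each of the 2 receptor genes with the smallest p were named by rule; other list genes were named after their values were seen. Deviations of arrays with the same replicate number were uncorrelated (r = 0.000316). With 2 arrays per group this cannot show whether the numbers pair arrays, and the labels do not say. Figures used matplotlib 3.10.9.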

Additional observations from a re-analysis of the deposited data

How the results depend on the processing

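P2ry6 and P2ry2 were lower in every alternative that tested them (16 and 15 settings), with log2 changes from -2.78 to -2.54 and from -1.17 to -0.99. Each has a single probe, in the early part. The alternative name readings and the mean over the probes of a gene therefore could not move these changes. Both genes passed in each alternative that kept all 4 arrays and tested them. P2rx4 (-0.08 to 0.19) and P2rx7 (-0.09 to 0.13) passed in none of those. When the dim limit was raised to the 60th percentile, P2ry2 was no longer tested, 1 receptor gene was called and 4 pathway genes were lower. With all names read at their own row, the reading the repeated accessions go against, 5 receptor genes were called. Leaving out 1 array at a time gave 2 receptor genes throughout, 12262 to 12764 probes, 13 to 14 pathway genes higher and 7 to 8 lower; a group left with 1 array takes its spread from the other. The replicate block gave 13711 probes beside 13530 and 2 receptor genes, and changed no call among the 4 tested receptor genes. Over all settings 9763 to 14366 probes were called. Quantile and cyclic loess normalization moved the median over all tested probes, a log2 change of 0.11, to 0.0151 and -0.0145. The number of arrays and signal near the dim limit limit these values.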

Other observations

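The 3 receptor probes between the parts of the table were not read above. A reading at their own row was added after the data were seen. The first stretch between the parts holds all 3. There, probes of 1 accession correlated in level with their early probe at r = 0.554 at their own row. Read 5 rows later the value was 0.0450, beside 0.440 within the early part (61 pairs, which share the arrays and are not independent). Their log2 changes correlated at 0.287 at their own row and at 0.0111 read 5 rows later, beside 0.265 within the early part. The value at the row of P2rx2, the subunit of the inner ear's best known P2X channels, was 8.23 and 9.37 in calretinin-positive arrays and 11.0 and 10.3 in calretinin-negative arrays. These arrays did not overlap, as was the case, in the same direction, for 31.9% of the tested probes. The log2 change was -0.28 ± 0.08 (SE; adjusted p = 0.0129, limma, Benjamini-Hochberg), a decrease that 23.4% of the tested probes reached. On this reading 3 of 6 tested receptor genes would be called in place of 2, beside 64.2% of all tested probes.

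On the same reading the second P2rx3 probe had 0.0616 and 0.0447 in calretinin-positive arrays and 2.76 and 2.89 in calretinin-negative arrays. The late P2rx3 probe, of the same accession, was dim on all 4 arrays, so the probes disagree for the calretinin-negative cells, and which of them shows the level of P2rx3 was not tested. The second P2rx6 probe had 1.40 and 1.68 in calretinin-positive arrays and 1.40 and 1.33 in calretinin-negative arrays, above the dim limit, where the late P2rx6 probe was below it. P2ry4, another P2Y receptor gene, had 0.848 and 0.791 in calretinin-positive arrays and 1.09 on both calretinin-negative arrays. Its log2 change was -0.41 (adjusted p = 0.0278, limma, Benjamini-Hochberg), a decrease that 18% of the tested probes reached.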
